A study of Emberiza bruniceps with 4 samples.

Results

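The dopamine receptors and a set of proteins that carry dopamine signals in striatal neurons were examined in RNA from the hypothalamus of the red-headed bunting (Emberiza bruniceps), a seasonal migrant. The genes were taken by protein name from the authors' matches to collared flycatcher proteins: every dopamine receptor, protein phosphatase 1 regulatory subunit 1B (PPP1R1B, also known as DARPP-32), the GTP-binding protein Rhes and its relative Rhes-like, RAS guanyl-releasing protein 1 (RASGRP1), and B-cell lymphoma/leukemia 11B (BCL11B). This gave 11 of the 11946 protein names, and 10 of them were among the 10560 names with a mean of at least 1 CPM (counts scaled to the same total of matched counts in each library). The D(4) dopamine receptor, with a mean of 0.806 CPM, was the one below that level. The genes were chosen by values from these same libraries, namely their low counts in castrated birds, so the comparison of castrated with intact birds is given below as a description.

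Birds were wild caught, and there were 4 libraries, 1 each for intact birds in spring, intact birds in autumn, castrated birds in spring and castrated birds in autumn. The labels give no age, no drug and no genotype, and they do not state how many birds each library holds or how the tissue was dissected. Since every group had 1 library, replicate spread could not be measured and no test was made. Differences were called by size, as at least 2-fold, and each log2 ratio was given an exact 95% binomial interval that covers counting error only.

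Dopamine receptors are G protein-coupled receptors of 2 classes. Receptors of the D1 class raise cyclic AMP through stimulatory G proteins, and those of the D2 class lower it through inhibitory ones. In the medium spiny projection neurons of the striatum, cyclic AMP activates protein kinase A, which turns PPP1R1B into an inhibitor of protein phosphatase 1. In songbirds the D1A, D1B and D2 receptors are densely expressed in the striatum, a part of the telencephalon, while the hypothalamus is better known for dopamine neurons that control the pituitary.

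In these libraries 7 of the 10 genes were at least 2-fold lower in the castrated than in the intact library in both seasons, and 0 were at least 2-fold higher in both. Over all genes analysed, 9.63% were at least 2-fold lower in both seasons and 4.51% at least 2-fold higher. Within spring alone the members gave 7 lower and 0 higher, beside 14.6% and 8.62% of all genes, and within autumn 7 lower and 1 higher, beside 15.3% and 12.3%. Because the castration contrast had been used to pick the genes, nothing is read from the member count against that background. The 7 were the D(1A), D(1B) and D(2) receptors, PPP1R1B, Rhes, RASGRP1 and BCL11B. All but D(2) were at least 16-fold lower in both seasons, a size that 0.294% of all genes reached. For D(1A) in spring that size depended on the processing, since its log2 ratio was -3.96 under library totals over all contigs, -3.96 with 2 CPM added and -3.74 in TPM, each short of 16-fold. The D(1) dopamine receptor-like gene, the D(3) receptor and Rhes-like were the other 3. Markers of the hindbrain and pituitary also separated the castrated from the intact libraries, with values given after the members, so that gonadal state and a different piece of tissue cannot be told apart in these data. Nor can fewer cells of a type and less RNA per cell be told apart in bulk tissue.

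**Figure D1:**
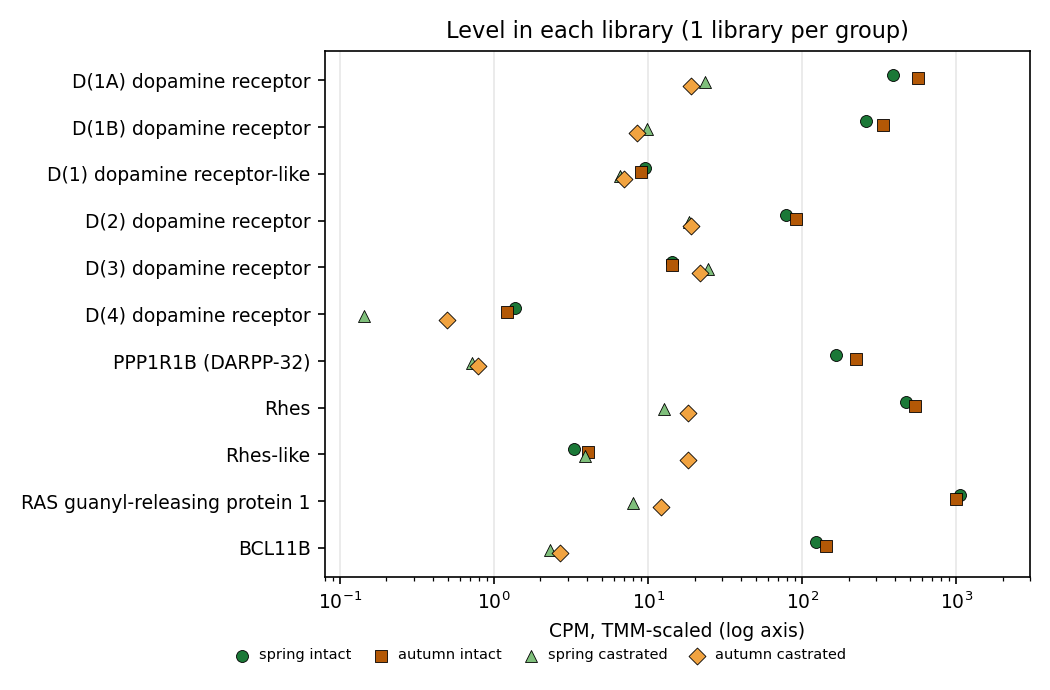
Level of each gene (CPM scaled by TMM factors, log axis) in the 4 libraries, 1 point per library. For the D(1A), D(1B) and D(2) receptors, PPP1R1B, Rhes, RASGRP1 and BCL11B, both castrated libraries lie far below both intact ones, while for D(3) they lie above, at 24.3 and 21.8 against 14.2 and 14.3 CPM.

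Among receptors of the D1 class, the D(1A) receptor, the main D1-type receptor of striatal neurons, was at 391 CPM in the intact spring library, 561 in the intact autumn library, 23.3 in the castrated spring library and 18.9 in the castrated autumn library. Both castrated libraries lay below both intact ones, an order that 33.8% of all genes analysed also showed. The log2 ratio of castrated to intact (each level plus 0.5 CPM) was -4.04 in spring (95% interval -4.31 to -3.84) and -4.86 in autumn (-5.11 to -4.68).

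The D(1B) receptor, the D1-class receptor called D5 in mammals, was at 261 CPM (intact spring), 333 (intact autumn), 9.88 (castrated spring) and 8.51 (castrated autumn). It had the same order of libraries as D(1A), with log2 ratios of -4.66 in spring (-5.09 to -4.38) and -5.21 in autumn (-5.62 to -4.98). The D(1) dopamine receptor-like gene, a further D1-class name, was low everywhere, at 9.59, 9.05, 6.58 and 6.93 CPM in the same order of libraries. Its castrated libraries were also below its intact ones, but both intervals of its log2 ratio included 0, at -1.11 to 0.02 in spring and -0.89 to 0.12 in autumn.

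Among receptors of the D2 class, the D(2) receptor, found on the other population of striatal projection neurons and, as an autoreceptor, on dopamine neurons, was at 77.9 CPM (intact spring), 90.9 (intact autumn), 18.3 (castrated spring) and 18.9 (castrated autumn). Its log2 ratios were -2.06 in spring (-2.38 to -1.81) and -2.24 in autumn (-2.51 to -2.03), smaller in size than those of D(1A) and D(1B). The D(3) receptor, a D2-class receptor of limbic regions in mammals, went the other way, at 14.2, 14.3, 24.3 and 21.8 CPM. Its log2 ratios of 0.75 (0.41 to 1.14) and 0.59 (0.27 to 0.95) did not reach 2-fold. Both castrated libraries were above both intact ones, an order that 32.9% of all genes analysed also showed. The D(4) receptor had 10 counts in the intact spring library, 9 in the intact autumn, 1 in the castrated spring and 5 in the castrated autumn library, and its log2 ratios of -1.54 (-8.70 to -0.45) and -0.79 (-3.22 to 0.44) were poorly determined at this depth.

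**Figure D2:**
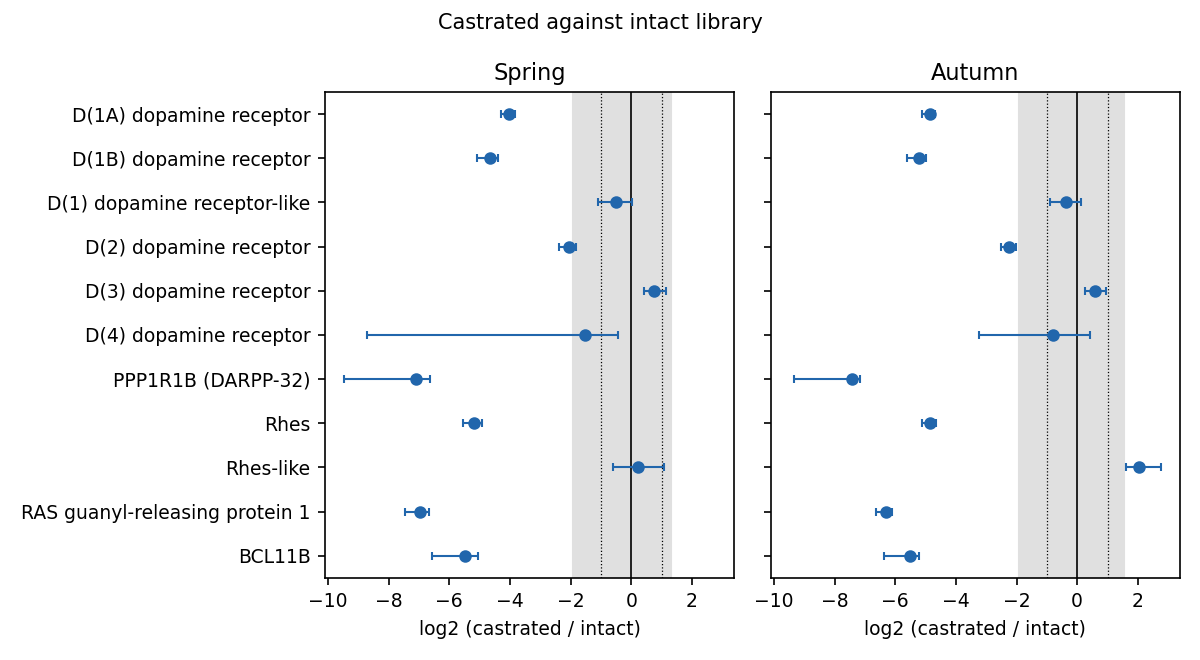
Log2 ratio of the castrated to the intact library in spring (left) and autumn (right) for the 11 genes; bars are exact 95% binomial intervals for counting error only, the grey band holds the middle 90% of all genes analysed and dotted lines mark 2-fold. D(1A), D(1B), D(2), PPP1R1B, Rhes, RASGRP1 and BCL11B lie left of the band in both seasons, while D(1)-like, D(3) and D(4) lie within it.

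The mix of receptors differed with their sum. The 6 receptors together came to 756 CPM in the intact spring library, 1010 in the intact autumn, 82.6 in the castrated spring and 75.5 in the castrated autumn library. Measured as TPM, which corrects for contig length, D1-class receptors made up 85.3% (spring) and 87.2% (autumn) of receptor transcripts in intact birds, against 42.8% and 40.7% in castrated birds. Within the D2 class, D(3) made up 15.3% and 13.9% of transcripts in intact and 58.6% and 54.8% in castrated libraries. In TPM the order was D(1A), D(1B), D(2), D(3) in both intact libraries, at 29.3, 28.6, 7.27 and 1.55 in spring and 41.2, 35.3, 8.79 and 1.58 in autumn. In both castrated libraries D(3) came first, at 2.70 and 2.63 TPM, and D(2), at 1.83 and 1.76, was next. Neighbours in these orders such as D(1A) and D(1B) in the intact spring library are close, and 1 library per group gives no spread against which to set the gap. The D(2) values also leave out contigs of its assembler group that had no kept protein match. With those counted in, D(2) had 201 and 226 counts in the castrated libraries, beside 170 and 220 for D(3). The order of D(2) and D(3) there, and the D(3) share, therefore depend on which contigs are counted.

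Downstream of the receptors, PPP1R1B had 1212 counts in the intact spring library, 1649 in the intact autumn, 5 in the castrated spring and 8 in the castrated autumn library, or 166, 223, 0.716 and 0.792 CPM. Its log2 ratios, -7.10 in spring (-9.48 to -6.63) and -7.43 in autumn (-9.35 to -7.15), were the lowest of the 11 genes. These values rest on weak matches. Its most abundant contig, an assembled transcript of 208 bases, held 91.7% and 92.5% of the intact counts and matched PPP1R1B over 67 residues at 68.7% identity.

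The other 4 contigs matched PPP1R1B over 34 to 41 residues at 82.9% to 88.2% identity. Over contigs of at least 300 bases the log2 ratios were -4.13 and -4.56, and no contig passed an e-value of at most 1e-20 with at least 70% identity. The TPM of PPP1R1B was not set beside other genes, since the effective length of the leading contig was only 31.9 to 36.5 bases.

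Rhes, a small GTPase that in rodents is enriched in the striatum and limits cyclic AMP signalling, was at 475 CPM (intact spring), 537 (intact autumn), 12.6 (castrated spring) and 18.2 (castrated autumn). Both castrated libraries were below both intact ones, as for 33.8% of all genes analysed, with log2 ratios of -5.18 (-5.56 to -4.93) and -4.84 (-5.10 to -4.67). Rhes-like, a separate protein name with 1 contig of 1415 bases, was at 3.29, 4.05, 3.86 and 18.1 CPM. Only the castrated autumn library stood high for it, with a log2 ratio to the intact autumn library of 2.03 (1.60 to 2.77) against 0.21 in spring (-0.62 to 1.09).

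RASGRP1, an exchange factor that loads Ras with GTP in response to calcium and diacylglycerol, was the most abundant of the 11 in intact birds, at 1055 CPM in spring and 1002 in autumn, above 99.2% of all genes analysed in each. In castrated birds it was at 8.01 CPM in spring and 12.1 in autumn. Its log2 ratios were -6.95 (-7.45 to -6.66) and -6.32 (-6.64 to -6.12). BCL11B (CTIP2), a zinc finger transcription factor that in mice is needed for the differentiation of medium spiny neurons, was at 123.5 and 143.8 CPM in intact and 2.29 and 2.67 CPM in castrated libraries. Both castrated libraries lay below both intact ones, as for 33.8% of all genes analysed. The BCL11B log2 ratios were -5.47 (-6.57 to -5.05) and -5.51 (-6.36 to -5.20). With all contigs of its assembler groups counted, including 1 without a kept match, they were -4.916 in spring, outside the interval, and -5.845 in autumn. In length-corrected terms RASGRP1 led the intact libraries at 74.6 and 69.6 TPM, followed by Rhes at 39.7 and 45.2 TPM, and BCL11B was at 29.4 and 33.3 TPM.

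Season was not used to choose the genes. Of the 10 genes, 0 were at least 2-fold apart between spring and autumn in both gonadal states, where 0.634% of all genes were lower in spring in both states and 0.246% higher. In intact birds 0 of the 10 passed 2-fold, beside 4.39% of all genes lower in spring and 2.60% higher. In castrated birds 1 was lower in spring, beside 5.42% of all genes, and 0 were higher, beside 2.52%. The 1 was Rhes-like, at 3.86 CPM in spring and 18.1 in autumn, with a log2 ratio of spring to autumn of -2.09 (-2.87 to -1.64).

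Smaller seasonal differences beyond counting error were seen in intact birds. D(1A) was lower in spring, with a log2 ratio of -0.52 (-0.59 to -0.45). With contigs of the same assembler group that had no kept match counted in, the D(1A) ratio was only -0.10. For PPP1R1B the ratio was -0.42 (-0.53 to -0.32), for D(1B) -0.35 (-0.44 to -0.26), for D(2) -0.22 (-0.39 to -0.06), for BCL11B -0.22 (-0.35 to -0.09) and for Rhes -0.18 (-0.24 to -0.11). The Rhes ratio, too, was smaller with unmatched contigs of its assembler group counted in, at -0.09, outside its interval. RASGRP1 was slightly higher in spring, at 0.08 (0.03 to 0.12). These sizes are within the range of most genes, since the middle 90% of all genes lay between -0.95 and 0.77. In castrated birds the intervals of D(1A), D(1B), D(2), D(3), PPP1R1B and BCL11B included 0, while Rhes was lower in spring at -0.52 (-0.92 to -0.16) and RASGRP1 at -0.56 (-1.08 to -0.12).

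**Figure D3:**
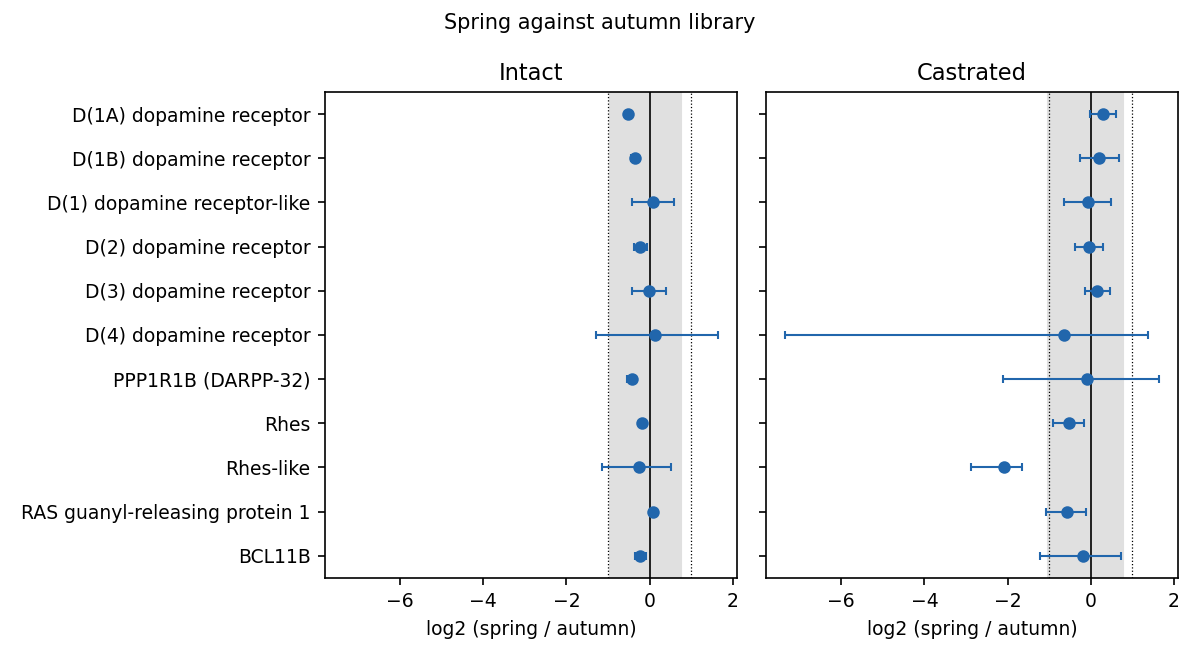
Log2 ratio of the spring to the autumn library in intact (left) and castrated birds (right) for the 11 genes; bars are exact 95% binomial intervals for counting error only, the grey band holds the middle 90% of all genes analysed and dotted lines mark 2-fold. Every gene lies within 2-fold except Rhes-like in castrated birds, at -2.09.

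The 11 names rested on 44 contigs. A gene's counts were often divided among near-identical contigs whose shares changed from library to library. D(1A) had 2 contigs of almost equal length, 4059 and 4046 bases, both matching 453 residues at 98.2% identity. The 4046-base contig held 97.3% of D(1A) counts in the intact spring library, 81.7% in the castrated spring and 88.6% in the castrated autumn library, whereas the 4059-base contig held 96.2% in the intact autumn library and had 0 counts in the intact spring one. Taken alone, the 4059-base contig would turn the spring log2 ratio of D(1A) to 2.65, so the counts of D(1A) were read only as the sum over contigs.

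Rhes behaved alike, with a 3660-base contig holding 75.7% of its counts in the intact spring library and a 3635-base contig 80.4% in the intact autumn one. Another Rhes contig, of 3373 bases had 0, 692.5, 32.9 and 52.2 counts in the intact spring, intact autumn, castrated spring and castrated autumn libraries, and all 3 matched 266 residues at 99.6% identity. The leading contig differed between the intact libraries in 4 of the 8 members above 1 CPM that had more than 1 contig, and in 23.4% of all genes with more than 1 contig (2021 of 8631). The members were D(1A), D(2), D(3) and Rhes.

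**Figure D4:**
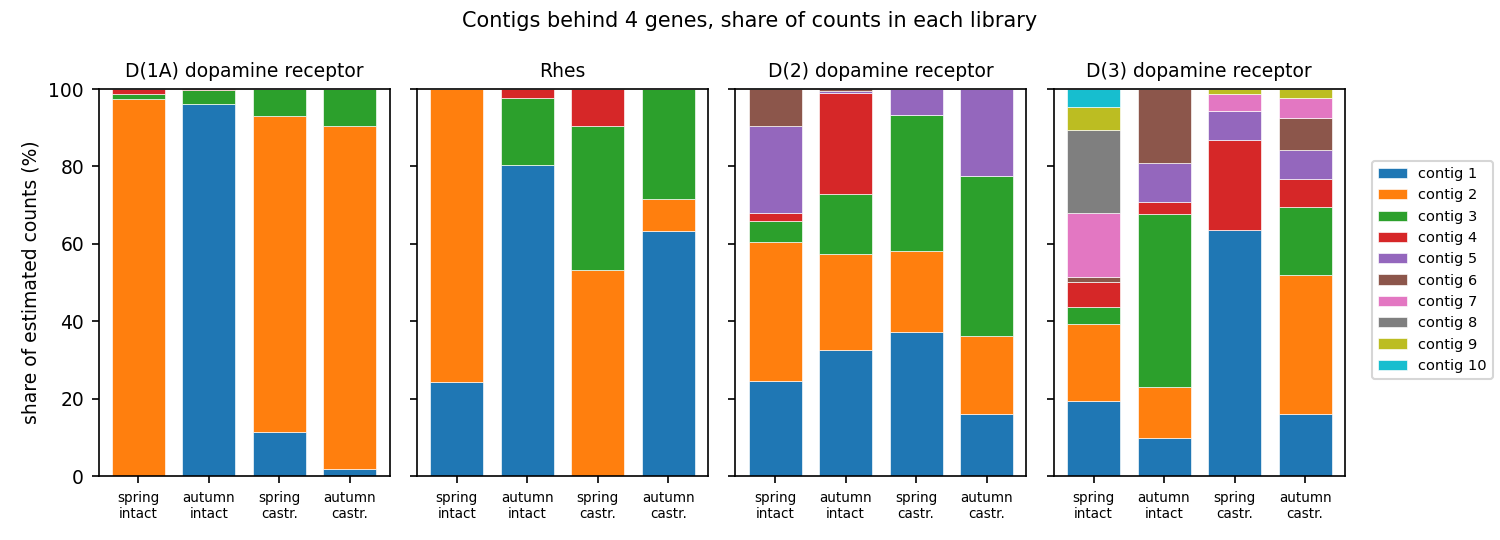
Share of estimated counts (%) on each contig of D(1A), Rhes, D(2) and D(3) in the 4 libraries; contigs are numbered within a gene by total counts, so a colour marks different contigs in different panels. The leading D(1A) contig changed between the intact libraries, from 97.3% on contig 2 in spring to 96.2% on contig 1 in autumn.

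In other members the contigs went together. RASGRP1 had 3 abundant contigs of 4261, 4958 and 3983 bases, matching 749, 519 and 319 residues at 97.2% to 99.0% identity, and all 3 were lower in both castrated libraries. The 4261-base contig had 5912 and 4690 counts in the intact and 56 and 116.8 in the castrated libraries. The 3983-base contig had 402.6 and 1435 counts in the intact and 0 in both castrated libraries. BCL11B was covered by 2 contigs, of 1974 and 1125 bases, with log2 ratios of -5.80 and -5.32 for the first in spring and autumn and -4.73 and -5.28 for the other.

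D(1B) rested mostly on 1 contig of 2666 bases, matching 271 residues at 99.6% identity, with 1636, 2028, 65 and 80 counts in the intact spring, intact autumn, castrated spring and castrated autumn libraries. The 3 remaining D(1B) contigs matched at only 57.1% to 57.4% identity over 94 to 112 residues, so their identity is uncertain. With stricter matches, which drop them, the log2 ratios were -4.54 and -5.03. D(4) had 2 contigs, of 754 bases at 96.4% identity and of 459 bases at 84.0%, with at most 6 counts on either in any library.

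Of the 9 D(3) contigs with at least 10 counts, 2 were lower in both castrated libraries. The most abundant, of 2950 bases, had 20.2 and 10.4 counts in the intact and 108.2 and 35.5 in the castrated libraries. The next 3 D(3) contigs did not share one order: that of 2572 bases had 20.6, 14.0, 0 and 78.6 counts, that of 3040 bases 4.7, 47.2, 0 and 38.7, and that of 2694 bases 6.8, 3.4, 39.5 and 15.9, in the order intact spring, intact autumn, castrated spring, castrated autumn. The D(3) direction therefore holds for the sum over contigs.

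D(2) contigs showed a difference in structure. In mammals the D2 receptor has a long and a short splice form, which differ by an insert in an intracellular loop. Of the 4 bunting contigs that spanned all 443 aligned residues of the flycatcher protein, 2 lacked a run of 29 residues and were 87 bases shorter than their partners. The forms lacking the run had 65.5 counts in the intact spring library, 180.7 in the intact autumn and 0 in both castrated libraries, while those with the run had 159.2, 105.6, 53.5 and 121.6.

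The form lacking the run thus held 29.3% of these D(2) counts in the intact spring library (exact 95% interval 23.5% to 35.8%) and 63.3% in the intact autumn library (57.4% to 68.9%). In the castrated libraries it held 0 of 54 counts in spring (exact 95% interval 0% to 6.60%) and 0 of 122 in autumn (0% to 2.98%). These intervals cover counting error only and not the way estimated counts are divided among similar contigs. The 2 most abundant D(2) contigs were not placed in either form, since the aligned segment read for each covered only part of the protein. The matched contig of 2389 bases (232 residues at 77.6%) had 139.9, 220.0, 47.4 and 30.5 counts. Its match lacked a run of 50 residues, so a D(2) contig with a gap was present in the castrated libraries too. That of 3797 bases matched in 2 segments, and only the segment of highest bit score (177 residues at 98.9%) was read for a gap. Its counts were 203.9, 166.8, 26.7 and 38.7.

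The threshold on the e-value left out a few contigs of the same names. Just inside 1e-05 were a PPP1R1B contig at 2.9e-06, with 3, 6, 0 and 0 counts, and a RASGRP1 contig at 4.6e-07, with 1.3 counts in the intact spring library. Just outside were a PPP1R1B contig at 1.4e-05 with 129.5, 174.4, 1 and 2 counts and 34.0% identity, RASGRP1 contigs at 1.5e-05 with 28.1, 30.0, 0 and 0 counts and at 6.6e-05 with 6.2, 9, 0 and 0 counts, and a BCL11B contig at 1.6e-05 with 2, 3, 0 and 0 counts. All 4 had more counts in the intact libraries, as did the sums over the kept contigs of these names. The BCL11B contig did not exceed the 3 counts that a count of 0 allows. These names were chosen for low counts in castrated birds, so the shared direction is only a description.

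The close relatives of the signalling genes did not share one direction. RASD1, the dexamethasone-induced relative of Rhes, was at 346 and 363 CPM in intact and 90.2 and 130.0 CPM in castrated libraries (log2 ratios -1.94 and -1.48). BCL11A, the relative of BCL11B, was at 91.2 and 70.8 CPM in intact and 16.7 and 9.21 CPM in castrated libraries (-2.41 and -2.88). RASGRP3, in contrast, was higher in castrated birds, at 62.9 and 46.5 against 130.8 and 130.7 CPM (1.05 and 1.48). PPP1R1C, the relative of PPP1R1B, had 3 and 7 counts in intact and 27 and 39 in castrated libraries, with log2 ratios of 2.26 (1.53 to 5.60) and 1.59 (0.85 to 3.44). PPP1R1A, RASGRP2 and RASGRP4 had no equal protein name among the matches.

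Beyond the members, a list of genes of striatal projection neurons was followed. Of 39 list genes, 31 were analysed, among them 6 of the members (the D(1A) and D(2) receptors, PPP1R1B, Rhes, RASGRP1 and BCL11B). Of the other 25, 15 were lower by the 2-fold rule in castrated birds of both seasons and 1 was higher, beside 9.63% and 4.51% of all genes. Their median log2 ratios were -1.21 in spring and -1.74 in autumn, where the medians of all genes were 0.01 and -0.01. The list had been chosen with earlier results of these data known and is not independent evidence of a direction. The summed level of these 25 genes was 8173 and 8169 CPM in intact and 3466 and 3672 CPM in castrated libraries.

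PDE10A, the phosphodiesterase that breaks down cyclic nucleotides in medium spiny neurons, was at 282 and 252 CPM in intact and 9.45 and 11.6 CPM in castrated libraries (-4.83 and -4.39). The muscarinic receptor M4 (CHRM4), which opposes D1 signalling, was at 244 and 264 against 13.3 and 15.9 CPM (-4.14 and -4.01).

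The prodynorphin gene (PDYN), a peptide precursor of D1-type neurons, had log2 ratios of -3.89 and -3.58. Its counterpart in D2-type neurons, proenkephalin (PENK), was less far apart, at 739 and 667 against 319 and 314 CPM (-1.21 and -1.09). The substance P precursor (TAC1) was at 39.7 CPM in the intact spring library but 7.56 in the intact autumn one, with 3.86 and 2.77 in the castrated libraries, and almost all of its counts were on a contig of 203 bases. FOXP1, a forkhead factor of striatal neurons, was at 137 and 130.0 against 18.3 and 11.4 CPM (-2.87 and -3.46).

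RGS9, which shortens G protein signals, had log2 ratios of -2.30 and -1.94, and the striatal-enriched phosphatase PTPN5 -1.92 and -1.97. The adenosine A2a receptor (ADORA2A), a marker of D2-type striatal neurons in mammals, was almost level, at 313, 309, 281 and 301 CPM, with log2 ratios of -0.16 and -0.04. The sodium channel subunit SCN4B was the 1 gene of the list at least 2-fold higher in both castrated libraries, at 7.40 and 6.75 in intact and 76.7 and 63.6 CPM in castrated ones (3.29 and 3.14). The list as a whole was therefore not uniform.

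Of 56 genes of the dopamine signalling cascade, from G proteins to phosphatases and kinases, 33 were analysed. By the 2-fold rule 14 were lower in castrated birds of both seasons and 1, PPP1R1C, was higher, beside 9.63% and 4.51% of all genes. The median log2 ratios were -0.82 in spring and -1.12 in autumn. This list, too, had been chosen with earlier results of these data known. It is not separate from the lists above: PDE10A and RGS9 were counted as lower in both this list and the striatal one. RASD1 and PPP1R1C were also among the relatives described above. Adenylate cyclase type 5 (ADCY5), the main striatal cyclase in mammals, was at 56.3 and 60.0 CPM in intact and 1.43 and 2.48 CPM in castrated libraries (-4.88 and -4.35), on a contig that matched over 37 residues only. Adenylate cyclase type 1 had log2 ratios of -3.05 and -3.13, and the PKA regulatory subunit PRKAR2A -5.11 and -3.08.

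GNAL, the G protein subunit that couples D1-class receptors to cyclase, had 45 and 46 counts in intact and 4 and 10 in castrated libraries (-2.64 and -2.17). Of these GNAL counts, 93.3% were on a contig that matched over only 42 residues at 83.3% identity, so its identity is uncertain. BRAF had 26 and 32 counts in intact libraries and 0 in both castrated ones. Other parts of the cascade stayed within 2-fold in both seasons: for GNAI1, the inhibitory subunit used by D2-class receptors, the ratios were -0.82 and -0.49, for beta-arrestin-1 0.09 and -0.44 and for the catalytic subunit PPP1CA, the enzyme that PPP1R1B inhibits, 0.43 and 0.57.

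**Figure D5:**
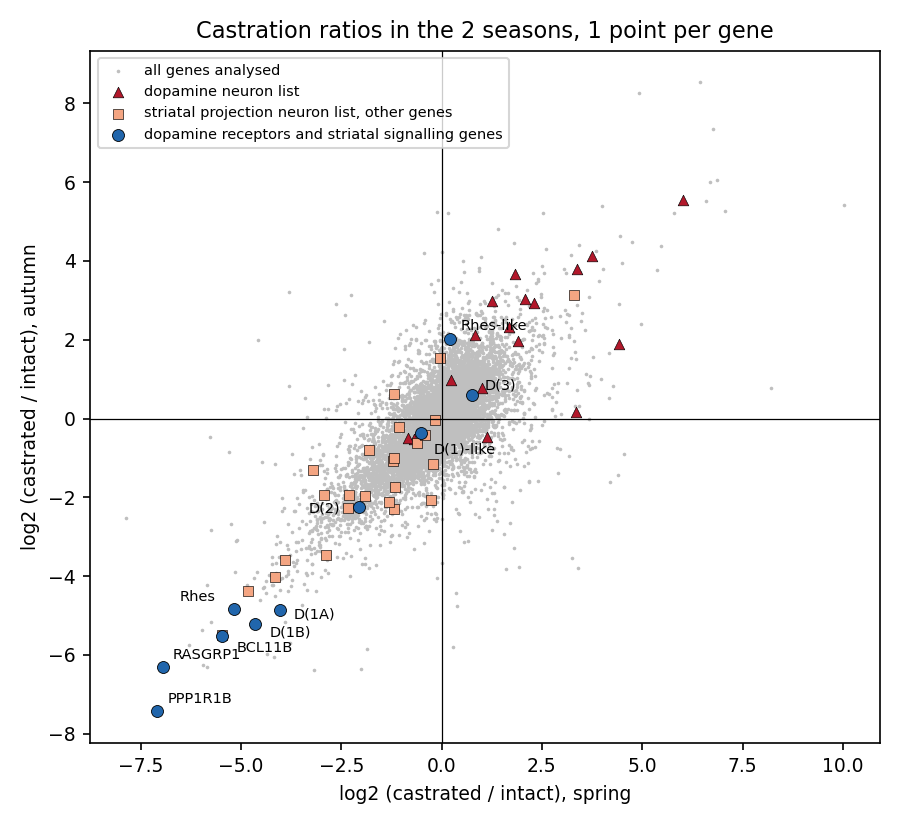
Log2 ratio of castrated to intact in spring (horizontal axis) and in autumn (vertical axis), 1 point per gene, for all genes analysed (grey), the 10 dopamine receptors and striatal signalling genes (blue circles), other striatal list genes (orange squares) and dopamine neuron genes (red triangles). PPP1R1B and RASGRP1 lie at the lower left, at -7.10 and -6.95 in spring, and the dopamine neuron genes lie mostly at the upper right.

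Markers of other brain regions also differed between the libraries, and those of the midbrain, hindbrain and pituitary were mostly higher in castrated birds. Of 10 midbrain and hindbrain markers analysed, 7 were at least 2-fold higher in both castrated libraries and 1 lower, beside 4.51% and 9.63% of all genes. Their sum was 38.2 and 35.7 CPM in intact and 592 and 380 CPM in castrated libraries, and HOXA3 and HOXD3 were at 0 in both intact ones. Of 9 pituitary markers 6 were higher and 0 lower, with sums of 9.72 and 9.99 against 867 and 343 CPM; TSHB and PITX1 were at 0 in both intact libraries.

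Of 17 dopamine neuron genes 10 were higher and 0 lower, with sums of 1066 and 857 CPM in intact and 2007 and 2395 CPM in castrated libraries. Tyrosine hydroxylase, which makes the dopamine precursor, had 69, 31, 121 and 202 counts, with log2 ratios of 0.84 and 2.13, and the dopamine transporter SLC6A3 had no equal protein name. Of 15 hypothalamus markers 2 were lower and 3 higher, with sums of 432 and 359 against 501 and 635 CPM for the labelled tissue, and NR5A1 in the intact autumn library was the 1 value at 0. The hypothalamic factor NKX2-1 was lower in castrated libraries, at 22.3 and 17.8 against 2.29 and 1.29 CPM. POMC, in contrast, had 18 and 1 counts in intact and 624 and 1980 in castrated libraries. It supplied 2.47 and 0.135 CPM of the hypothalamus sums in intact and 89.3 and 196 CPM in castrated libraries. In spring the castrated sum of 501 CPM exceeded the intact sum of 432 CPM by less than the 89.3 CPM of POMC. Without POMC the spring sum would therefore not be higher in castrated birds, while the autumn sum still would be.

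Of 14 pallial markers 4 were lower and 3 higher (sums 772 and 736 against 376 and 339 CPM), of 11 glial markers 1 was lower and 4 higher (9230 and 13380 against 18830 and 16190 CPM), and of 6 pan-neuronal genes 0 were lower and 3 higher (8672 and 7467 against 9564 and 7502 CPM). Transthyretin (TTR) alone supplied 239 and 7623 CPM of the glial sums in intact and 805 and 1746 CPM in castrated libraries. The order of the glial sums in the intact libraries therefore rests on TTR.

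Genes whose 4 levels were among the most like those of PPP1R1B, by the Euclidean distance between log2 levels centred on their mean over the 4 libraries, were RASGRP1 (0.80), regulator of G-protein signaling 12 (1.16), metabotropic glutamate receptor 5 (1.32) and diacylglycerol kinase eta (1.67). For D(1A) they were early growth response protein 3 (0.29), palladin (0.37), anoctamin-4 (0.40), the inactive ubiquitin thioesterase FAM105A (0.41) and vascular cell adhesion protein 1 (0.49). Among the members themselves, D(1A) and D(1B) lay 0.51 apart, and Rhes lay 0.53 from both D(1B) and BCL11B, with each distance over only 4 libraries. The members were chosen for their low counts in castrated birds, so closeness among them was partly set by that choice.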

How the data were processed

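Total RNA was extracted with Tri reagent from tissue ground under liquid nitrogen and sequenced on Illumina libraries, per the labels' protocols, and Trimmomatic and kallisto were used, per the submitters' processing notes (with no versions; the sources used here give neither the assembler nor the search tool). The authors deposited estimated counts and TPM per contig, with lengths, and matches to flycatcher proteins, each scored by percent identity, bit score and e-value, per the file headers. kallisto divides a read among all contigs it is compatible with, so counts can shift between near-identical contigs. Depth was 18155277 (intact spring), 18210588 (intact autumn), 16840270 (castrated spring) and 26213011 (castrated autumn) estimated counts in all.

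Each contig took its match of highest bit score at an e-value of at most 1e-05. Estimated counts were summed by protein name without isoform text and rounded; matched contigs held 39.1% to 41.7% of the counts, and the rest was left out. CPM was scaled with TMM factors of edgeR 4.0.16 (1.01, 1.04, 1.03 and 0.925) and names with a mean of at least 1 CPM were analysed. Log2 ratios were taken after adding 0.5 CPM, and the intervals were computed without it. Reads carry no molecular identifiers, so true errors may exceed the intervals. For a library with no count of a gene the floor was set at 3 counts (0.297 to 0.429 CPM). Of 216 list genes, 149 had an equal protein name and 145 passed the filter.

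The members and gene lists were chosen with earlier results of these data known. Named were all members, their contigs holding at least 10% of counts, the genes of the striatal and cascade lists furthest apart in both seasons with a fixed set of well-known ones, and selected genes of the other lists. Some genes that this rule names are not reported here. Alternatives were other scalings (including DESeq2 1.42.0), filters, added CPM, stricter matches, single contigs, thinning and TPM. The procedure was tested on simulated data.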

Additional observations from a re-analysis of the deposited data

Results flagged for a closer look

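RASGRP1 went in opposite directions with season in the intact and castrated libraries, with a log2 ratio of spring to autumn of 0.08 (0.075) in intact and -0.56 (-0.563) in castrated birds. Both counting intervals excluded 0, but with 1 library per group the difference between these ratios was not tested. Under library totals without TMM factors the intact ratio was 0.03.

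Contigs without a kept match in the same assembler groups as the members, which took no part in the comparisons, held counts above what a count of 0 allows. Over the 4 libraries together these came to 626.3 counts for BCL11B, 1040 for D(1A), 1509 for D(2), 1374 for Rhes and 7.0 for RASGRP1. For D(2) they were 632.6 in the intact spring, 767.9 in the intact autumn, 73.3 in the castrated spring and 35.2 in the castrated autumn library, beside 569, 673, 128 and 191 on the matched D(2) contigs. With them the D(2) log2 ratios of castrated to intact were -2.49 in spring and -3.08 in autumn. For D(1A) they were 953.3, 5.6, 46.2 and 35.0 counts, and with them its log2 ratio of spring to autumn in intact birds was -0.10.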

How the results depend on the processing

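The number of members lower in castrated birds of both seasons by the 2-fold rule was 7 under 11 of 13 alternatives and 6 under the other 2, stricter matches (PPP1R1B had no contig left) and the most abundant contig alone. The single-contig alternative also gave 1 member higher in both castrated libraries, D(3), in place of 0, and 1 apart by season in both gonadal states, Rhes, in place of 0. It turned the spring ratio of D(1A) to 2.91 on its own scaling, beside 2.65 for the same contig on the main scaling. Of 516 member ratios recomputed, 468 stayed within the counting interval, 47 moved outside it and 1 reversed. The striatal list gave 18 to 22 genes lower in both seasons and the cascade list 11 to 15. Library totals over matched contigs shifted the median of all genes to -0.18 in the autumn castration ratio and to 0.16 in the seasonal ratio of castrated birds, so ratios of that size depend on the scaling. Sums over whole assembler groups and the minimum contig length of 300 bases were chosen after seeing the data. No paired analysis was possible because the labels carry no replicate numbers by which libraries could be paired. An additive fit over the 4 libraries with season or gonadal state as a block would leave 1 residual degree of freedom and was not run. No library was left out, since each group has 1. The low counts of PPP1R1B and D(4) in castrated libraries limit how well their ratios are known.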
